A study of Mus musculus with 2 samples.

Results

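The complement components and receptors described here are 9 genes, chosen by symbol from the 55357 genes listed in both libraries: C1qa, C1qb, C1qc, C4b, C3, Cfb, Cfp, C3ar1 and C5ar1. Single-cell RNA came from live leukocytes sorted as CD45-positive and 7-AAD-negative from MC38 tumours, grown from a mouse colon carcinoma line. The control mice carried floxed Spp1 alleles (SPP1fl/fl), and the other mice carried the same floxed alleles with Lyz2-icre (SPP1fl/fl-Lyz2-icre), a Cre recombinase driven from the myeloid lysozyme locus. Both groups share the floxed alleles, so there was no mouse without them, and Cre without floxed alleles was not among the samples. Age, the number of mice behind each library and the time of tumour growth were not given in the sources used here.

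Complement is a cascade of plasma proteins that tags cells and debris. C1q, built from the A, B and C chains that C1qa, C1qb and C1qc encode, binds immune complexes and dying cells and starts the classical pathway through C4 and C2. All pathways meet at C3, the alternative pathway amplifies C3 cleavage through factor B (Cfb), and properdin (Cfp) stabilises its convertase. The released fragments C3a and C5a act on the G protein-coupled receptors C3ar1 and C5ar1. Most circulating components are made in the liver, whereas C1q is made mainly by macrophages and dendritic cells and is a common mark of tumour-associated macrophages.

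Each genotype was represented by a single library. Without replicates no genotype difference could be tested, and no p-value is given. The control library held 8724 cells and the Lyz2-icre library 13915 cells after filtering, with 88047097 and 98256831 UMIs (unique molecular identifiers, each counting 1 captured RNA molecule) and medians of 9379.5 and 6374 UMIs per cell. The libraries shared 43 cell barcodes. Levels are CPM, the UMIs of a gene over all UMIs of the cell class, scaled so that the class sums to 1e6, and ratios are Lyz2-icre over control. All 95% intervals reflect counting error alone and say nothing of the spread between mice or between cells. Spp1, the floxed gene, was at 839 CPM in macrophage-like cells of the control library and at 3.85 CPM in those of the Lyz2-icre library. Which exons are floxed was not given, and a 3′ tag can lie outside the deleted part. Lyz2, the driver gene, was at 11563 and 4017 CPM. By their Xist and Y-linked UMIs, cells from both sexes were present in each library, and ratios within each sex stand beside the results they touch.

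Cells were assigned to classes by gates on marker genes that included no complement gene. Macrophage-like cells numbered 6041 in control and 10408 in Lyz2-icre, or 69.2% and 74.8% of kept cells, at median depths of 9926 and 6797 UMIs. Monocyte-like cells (Ly6c2-high phagocytes) numbered 205 and 545, T-like cells 529 and 524, NK-like cells 184 and 194, cDC2-like cells (type 2 conventional dendritic cells) 69 and 65, migratory dendritic-like cells 148 and 106, and fibroblast-like cells 172 and 279. Neutrophil-like cells numbered 115 in control and 43 in Lyz2-icre, where they were too few to compare. Ptprc, which encodes the sorted surface protein CD45, stood at 21.1 and 21.9 CPM in fibroblast-like cells against 461 and 436 CPM in macrophage-like cells, so RNA of the sorted marker was far lower in them, and tumour cells among them were not told apart. Cells with markers of several lineages, 803 and 1022 in number, were set aside. So were 376 and 670 unassigned cells, which met no gate. These unassigned cells held 0.915% and 1.05% of the C1qa UMIs and 4.79% and 3.64% of the Cfp UMIs. B-like, plasma-like, cDC1-like, plasmacytoid dendritic-like and mast or basophil-like cells numbered under 50 each in either library. Those classes are not described.

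On mouse genome build mm10, with the GENCODE vM21 annotation, the 3 C1q genes lie together on the minus strand of chromosome 4. C1qb spans 136880129 to 136886187, C1qc 136889804 to 136893065 and C1qa 136895917 to 136898803, a stretch of 18675 bases with no other annotated gene. C4b (chromosome 17, 34728380 to 34743882) and Cfb (chromosome 17, 34856374 to 34862518) lie within 134139 bases of each other, in a stretch with 14 other genes. C3 is also on chromosome 17 (57203970 to 57228136), Cfp on X (20925454 to 20931555), C3ar1 on chromosome 6 (122847138 to 122856161) and C5ar1 on chromosome 7 (16246743 to 16259540), all on the minus strand. C4b has a near-identical paralog, C4a, which had 9 and 12 UMIs in macrophage-like cells and at most 3 in any other class, so the split of reads between the pair is uncertain. The protein-coding model Gm20547 overlaps Cfb on the same strand, which makes the Cfb counts uncertain as well.

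Promoter sequences from RefSeq (GRCm38.p6) were at hand for 6 of the 9 genes. Those of C1qb and C1qc are shown because these chains varied together from cell to cell, and that of C3 because its level differed between macrophage states. The C1qb and C3 lines hold the 250 bases before the RefSeq start, on the minus strand, read 5′ to 3′. The RefSeq start of C1qc lies inside the gene as GENCODE places it, and the last 151 bases of its window, which fall in that gene, are left out of its line. In the first 2 lines capitals mark AGGAAG, the core that ETS factors such as PU.1 bind, or its reverse complement CTTCCT. In the C3 line they mark TTNNGNAA, a loose form of the site bound by C/EBP factors. All motifs were searched on both strands.
C1qb, chr4:136886201-136886450: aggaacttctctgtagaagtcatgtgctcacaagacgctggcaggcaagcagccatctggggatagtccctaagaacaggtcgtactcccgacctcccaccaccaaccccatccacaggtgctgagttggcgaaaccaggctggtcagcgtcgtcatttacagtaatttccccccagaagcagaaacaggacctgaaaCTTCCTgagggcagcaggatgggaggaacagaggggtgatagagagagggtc
C1qc, chr4:136893066-136893164: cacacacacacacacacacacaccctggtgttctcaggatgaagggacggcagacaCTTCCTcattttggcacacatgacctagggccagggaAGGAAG
C3, chr17:57228137-57228386: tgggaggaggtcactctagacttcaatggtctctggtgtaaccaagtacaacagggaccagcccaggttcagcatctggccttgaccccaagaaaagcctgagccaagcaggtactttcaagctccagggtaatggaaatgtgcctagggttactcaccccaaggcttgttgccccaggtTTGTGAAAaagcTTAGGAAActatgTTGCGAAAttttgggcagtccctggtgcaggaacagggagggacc
The C1qb window held the ETS core in 1 place and the C1qc window in 2 places, a motif found in 29.5% of 32851 mouse promoter windows of 250 bases, the length searched for each gene. It was not particular to the C1q genes, as the C5ar1 window held it in 3 places. In all, 1.22% of windows held 3 or more places. Of the C5ar1 window, 202 bases lie inside the gene as GENCODE places it. The windows of C3, Cfp and C3ar1 held no ETS core. The C3 window held the C/EBP form in 3 places, starting 70, 58 and 45 bases before the start, the last matching on both strands. At least 1 such match occurred in 36.8% of windows, and 3 or more places in 2.61%. Neither TTCNNNGAA, the form bound by STAT factors, nor the interferon-stimulated response element was found in the windows of the 6 genes, against 7.02% and 2.98% of all windows. A match is a sequence description and was not tied to binding.

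The first question was which cells of the tumour carried each gene. The 3 C1q chains were highest in macrophage-like cells of both libraries. C1qa was at 4504 CPM there in control (4487 to 4520) and at 4904 CPM in Lyz2-icre (4889 to 4920). C1qb stood at 4885 and 4897 CPM and C1qc at 2576 and 2811 CPM. Summed, the chains were at 11964 and 12612 CPM. Monocyte-like cells came next, with C1qa at 1660 and 1816 CPM, C1qb at 1877 and 1971 CPM and C1qc at 908 and 1039 CPM, 35.3 to 40.2% of the macrophage-like level. Neutrophil-like cells of the control library carried 382 CPM of C1qa, 385 CPM of C1qb and 166 CPM of C1qc. All other described classes lay lower. T-like cells had C1qa at 197 and 161 CPM, NK-like cells at 134 and 148 CPM, cDC2-like cells at 158 and 118 CPM, migratory dendritic-like cells at 193 and 286 CPM and fibroblast-like cells at 87.3 and 139 CPM. Among these classes most neighbours in the order had overlapping counting intervals, with NK-like above fibroblast-like cells in control and migratory dendritic-like above T-like cells in Lyz2-icre as the exceptions.

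The low C1q counts of T-like cells stood beside low shares of other macrophage transcripts. In T-like cells C1qa was 4.37% and 3.29% of its macrophage-like level. Apoe, a lipid carrier abundant in macrophages, was at 4.46% and 4.02% of its macrophage-like level there, and Ms4a7, a macrophage membrane gene of the gate, at 3.21% and 2.13%. Cd68 (6.90% and 7.30%) and Ccl8 (13.3% and 8.30%) stood higher. The chain make-up was close in NK-like cells. C1qa, C1qb and C1qc formed 37.6%, 40.8% and 21.5% of the C1q UMIs of control macrophage-like cells, and 37.6%, 42.8% and 19.6% of those of control NK-like cells (95% exact binomial interval of C1qc in NK-like cells 16.1 to 23.5%). In control T-like cells the C1qc part was lower, at 16.8% (14.9 to 18.9%). The Lyz2-icre library did not share this, with 21.1% (18.4 to 24.0%) in T-like and 22.3% in macrophage-like cells. At a depth of 2000 UMIs per cell, 38.2% of control and 24.3% of Lyz2-icre T-like cells held a C1qa UMI, against 93.2% and 95.3% of macrophage-like cells. Without this thinning the shares were 63.1% and 39.1% against 96.4% and 96.3%, at median depths of 4481 and 2946 against 9926 and 6797 UMIs. T cells and NK cells are not known as C1q sources, but free RNA was neither estimated nor removed, and its part in these counts was not tested.

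**Figure D1:**
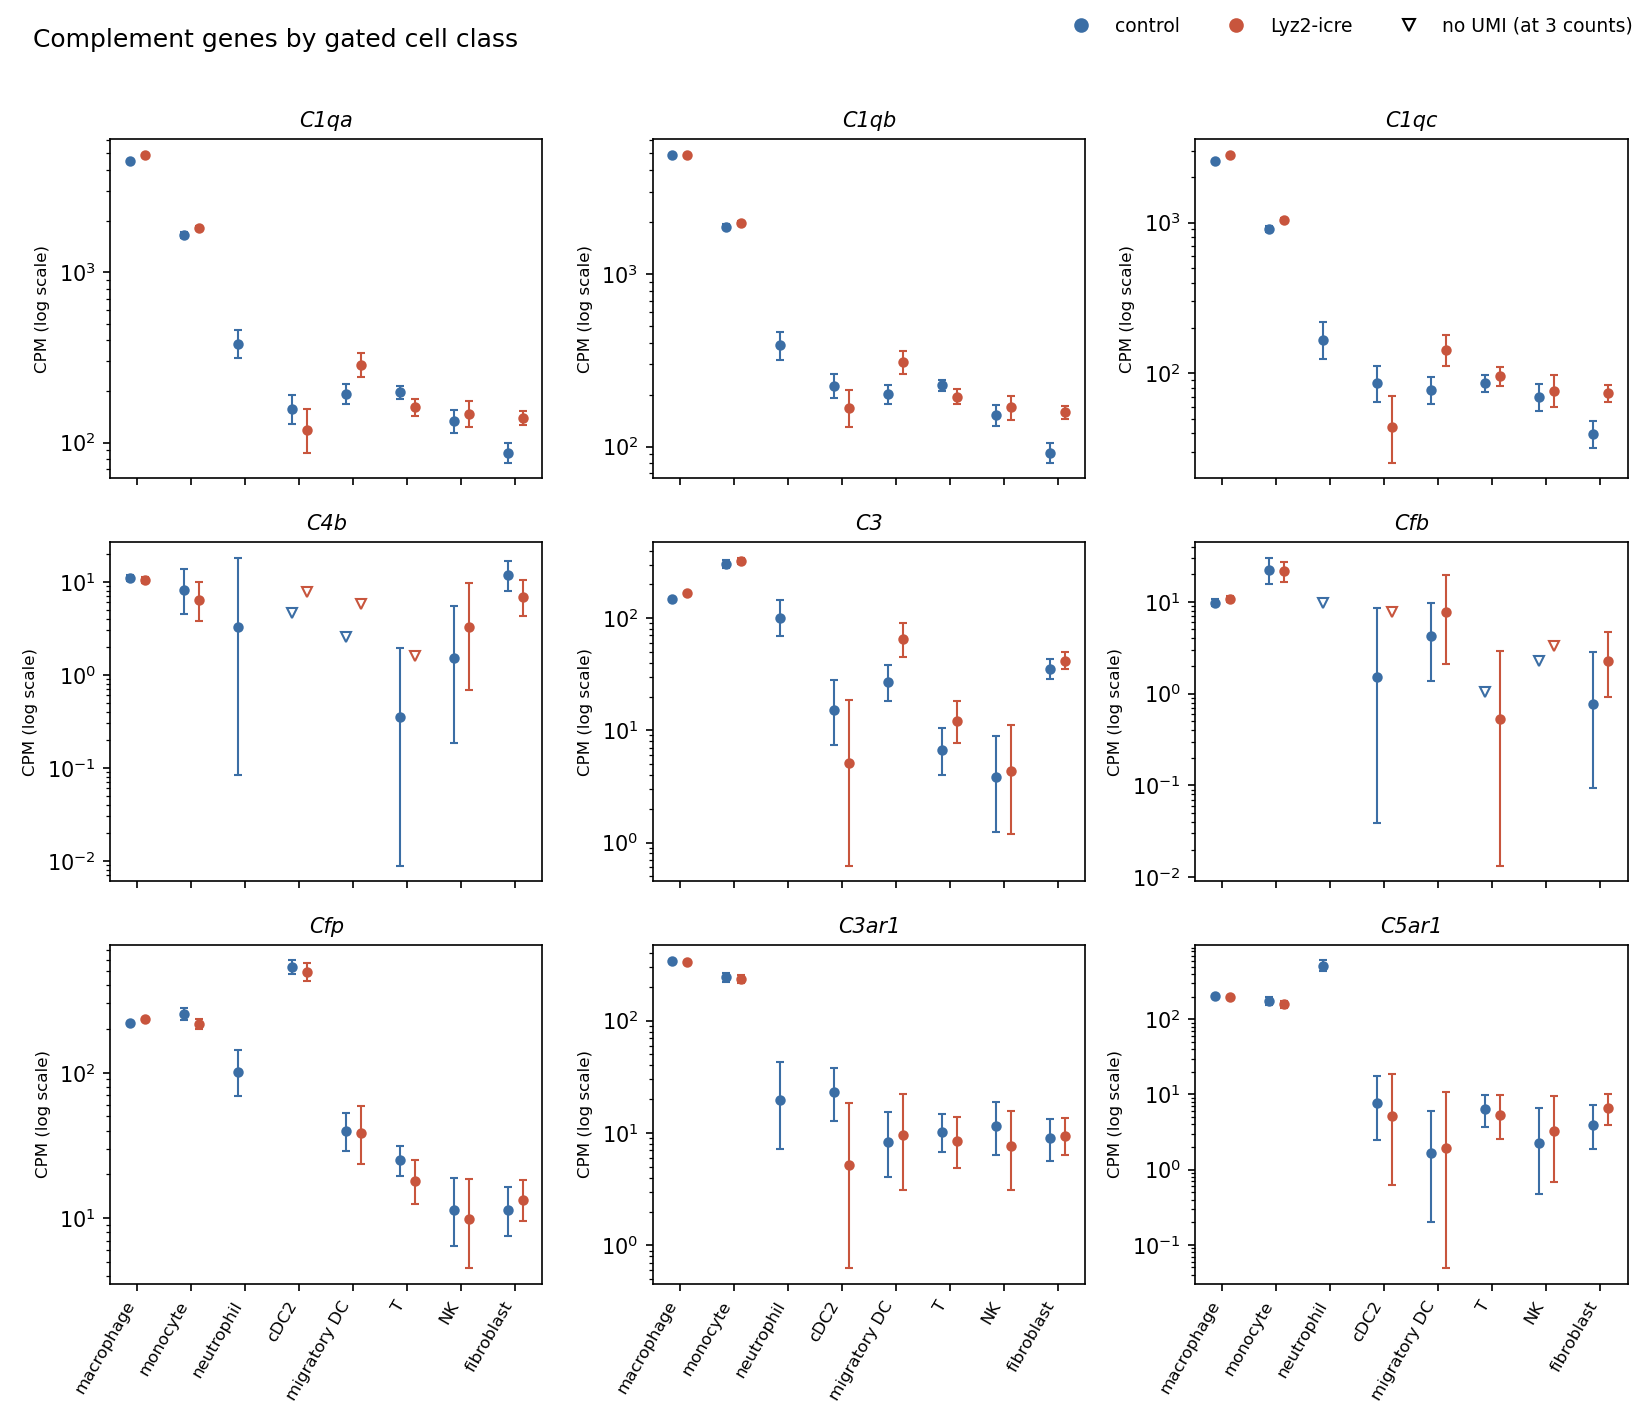
Level of each of the 9 genes (CPM, log axis) in 8 gated cell classes of the control (blue) and Lyz2-icre (red) libraries, with 95% Poisson intervals of the UMI counts. Open triangles mark classes with no UMI, drawn at 3 counts, and Lyz2-icre neutrophil-like cells (43 cells) are not drawn. C1q chains are highest in macrophage-like cells, C3 and Cfb in monocyte-like cells, Cfp in cDC2-like cells and C5ar1 in neutrophil-like cells.

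C4b, which encodes the C4 component that C1 cleaves, was scarce. Macrophage-like cells held 699 UMIs in control and 797 UMIs in Lyz2-icre, or 11.1 CPM (10.2 to 11.9) and 10.5 CPM (9.75 to 11.2). Fibroblast-like cells were at 11.7 CPM (7.89 to 16.7) and 6.85 CPM (4.24 to 10.5), and monocyte-like cells 8.16 and 6.32 CPM. These intervals overlapped, so the classes could not be put in order. Dendritic classes held no C4b UMI in either library. T-like cells counted 1 UMI and 0 UMIs, and NK-like cells 2 and 3 UMIs, at or under the floor of 3 counts.

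C3, the central component, was higher in monocyte-like than in macrophage-like cells. Monocyte-like cells carried 305 CPM in control (280 to 333) and 325 CPM in Lyz2-icre (304 to 347), against 147 CPM (144 to 150) and 167 CPM (164 to 170) in macrophage-like cells. The monocyte-like level was thus 207% and 195% of the macrophage-like level. After thinning to 2000 UMIs, 39.8% and 42.2% of monocyte-like cells and 19.7% and 23.1% of macrophage-like cells held a C3 UMI, against 1.59% and 1.47% of T-like cells. Without thinning these shares were 77.6% and 60.9%, 46.8% and 45.4%, and 3.40% and 3.24%. Neutrophil-like cells had 101 CPM in control, fibroblast-like cells 35.5 and 41.7 CPM, and T-like cells 6.67 and 12.2 CPM. The share of the macrophage-like level was 24.1% and 25.004% in fibroblast-like cells, against 1.53 to 3.22% for the C1q chains there. The 91 and 128 C3 UMIs of fibroblast-like cells lay in 12.8% and 13.6% of the cells, and the part of free RNA or of mixed droplets was not tested.

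Cfb, the protease subunit of the alternative pathway convertase, was likewise higher in monocyte-like than in macrophage-like cells, at a far lower level than C3. It stood at 22.1 CPM (15.7 to 30.4) and 21.4 CPM (16.4 to 27.5) in monocyte-like cells and at 9.84 CPM (9.08 to 10.6) and 10.8 CPM (10.1 to 11.5) in macrophage-like cells. The UMIs behind the monocyte-like values numbered 38 and 61. Migratory dendritic-like cells counted 5 and 4 UMIs, and NK-like cells none in either library. Over 7 classes in both libraries, 14 points in all, log2 levels of C3 and Cfb had a Pearson r of 0.96, a description of points that share libraries and free RNA.

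Cfp, which encodes properdin, was highest in cDC2-like cells, at 533 CPM (478 to 592) in control and 494 CPM (427 to 570) in Lyz2-icre. Monocyte-like cells followed at 254 and 217 CPM and macrophage-like cells at 219 and 235 CPM. The cDC2-like level was 244% and 210% of the macrophage-like level, whereas the C1q chains of the same cells were at 1.56 to 4.61%. At 2000 UMIs per cell, 66.2% of 68 control and 59.0% of 61 Lyz2-icre cDC2-like cells held a Cfp UMI, against 31.9% and 35.3% of macrophage-like and 3.19% and 1.96% of T-like cells. Without thinning the shares were 94.2% and 87.7%, 72.0% and 66.8%, and 7.94% and 4.96%. Migratory dendritic-like cells carried far less, at 39.4 and 38.4 CPM.

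The receptors differed in where they peaked. C3ar1, the C3a receptor, was highest in macrophage-like cells, at 339 CPM (334 to 343) and 333 CPM (329 to 337), with monocyte-like cells at 244 and 235 CPM. Every other described class held 5.15 to 23.0 CPM, and neutrophil-like cells of the control library 19.6 CPM on 6 UMIs. Mast or basophil-like cells, too few to describe, held 18 C3ar1 UMIs among 130024 UMIs in control (34 cells). In Lyz2-icre they held 1 C3ar1 UMI among 31036 UMIs (13 cells). C5ar1, the C5a receptor through which neutrophils are drawn to sites of complement activation, was highest in neutrophil-like cells, at 519 CPM (442 to 606) in control. The 43 Lyz2-icre neutrophil-like cells gave 396 CPM (238 to 618) on 19 UMIs. Macrophage-like cells carried 202 and 196 CPM of C5ar1 and monocyte-like cells 175 and 157 CPM. At 2000 UMIs per cell macrophage-like cells with UMIs of both receptors made up 16.1% in control and 15.6% in Lyz2-icre, and without thinning 61.5% and 49.6%.

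The second question was whether these genes differed between genotypes in macrophage-like cells, the class that made up most of both libraries. Of the 9 genes, 0 were lower by 1.5-fold or more and 0 were higher by as much. Among all 7901 genes at 10 CPM or more, 1.57% were lower and 0.494% were higher past this fold, so a count of 0 in 9 was near the background. The median log2 ratio of the 9 genes was 0.09, beside -0.01 over all genes. The C1q sum had a ratio of 1.05 (1.05 to 1.06), with C1qa at 1.09, C1qb at 1.002 and C1qc at 1.09. The chain make-up moved slightly, C1qb forming 40.8% of the C1q UMIs in control and 38.8% in Lyz2-icre. C3 had a ratio of 1.13 (1.10 to 1.16), Cfb 1.10 (0.986 to 1.22), Cfp 1.08 (1.05 to 1.10) and C4b 0.946 (0.854 to 1.05). The receptors were at 0.983 (0.965 to 1.001) for C3ar1 and 0.970 (0.947 to 0.993) for C5ar1. With a single library each, ratios this near to 1 cannot be told from the difference between any 2 libraries.

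Within the sexes the C1q ratio was not the same. Cells of neither call, 1725 in control and 3696 in Lyz2-icre over all classes, are not in these ratios. Among female cells (3656 and 5931) the C1q sum had a ratio of 1.0003 (0.996 to 1.004), and among male cells (1408 and 1962) of 1.18 (1.17 to 1.19). C1qa stood at 4694 and 4856 CPM in female and at 4210 and 5086 CPM in male cells. C1qb stood at 5142 and 4878 CPM in female cells (ratio 0.949) and at 4492 and 5076 CPM in male cells (1.13). C5ar1 took opposite directions too, at 210 and 188 CPM in female cells (0.894, 0.867 to 0.923) and 192 and 213 CPM in male cells (1.11, 1.06 to 1.17). C3 was at 148 and 176 CPM in female cells (1.19) and at 143 and 149 CPM in male cells (1.05). These differences between the sexes were not tested, since each sex and genotype is 1 pool of cells.

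**Figure D2:**
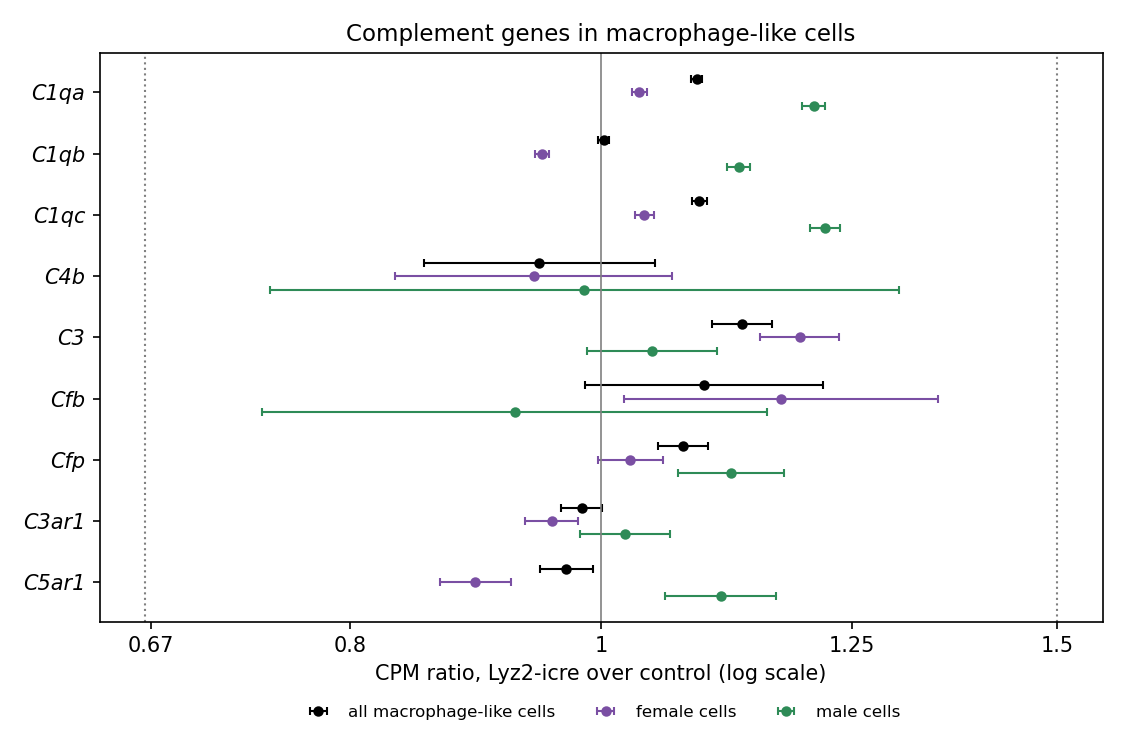
Ratio of CPM in macrophage-like cells, Lyz2-icre over control (log axis), for each gene in all cells (black), female cells (purple) and male cells (green), with exact conditional 95% intervals of the UMI counts. Dotted lines mark 1.5-fold in each direction, which no ratio reaches. The C1q chains and C5ar1 sit further right in male than in female cells.

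Depth differed between the libraries, and ratios were also taken within bands of depth, chosen after the data were seen. Among macrophage-like cells of 5000 to 10000 UMIs (2231 and 4864 cells) the C1q sum had a ratio of 1.04, C1qb of 0.994, C3 of 1.12, C3ar1 of 0.888 and C5ar1 of 0.933. C4b was the gene that varied most with depth. In cells under 5000 UMIs (829 and 3252 cells) it was at 35.5 and 11.6 CPM, a ratio of 0.326 (0.240 to 0.446), and in cells of 10000 UMIs or more at 9.25 and 9.32 CPM (1.01, 0.864 to 1.17). C3 was also lower in the shallow Lyz2-icre cells, at 240 and 192 CPM (0.802, 0.725 to 0.889), and higher in deep ones, at 145 and 168 CPM (1.16, 1.11 to 1.20). The ratios of C4b and C3 over all macrophage-like cells therefore do not hold at every depth. From the shallow to the deep band the C1q sum was at 1.09, 1.04 and 1.06. By chain, C1qa was at 1.02, 1.06 and 1.12, C1qb at 1.09, 0.994 and 0.997 and C1qc at 1.26, 1.07 and 1.10. Cfb stood at 0.753 (0.497 to 1.17), 1.21 and 1.05, and C5ar1 at 1.09 (0.980 to 1.23), 0.933 and 0.954. Cfp (1.04, 1.17 and 1.08) and C3ar1 (0.874, 0.888 and 0.965) kept 1 direction. C1qb stayed within 0.949 and 1.13 over the 13 alternatives tried, 7 of which shared its direction, so its sign was not settled.

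In classes other than macrophages most differences rested on few UMIs. In monocyte-like cells none of the 8 genes at 10 CPM or more was past 1.5-fold in either direction, where 4.97% of genes were lower and 6.36% higher. C1q was at 1.09 times the control level there (1.06 to 1.12), Cfp at 0.853 (0.753 to 0.966) and C3 at 1.06 (0.955 to 1.19). Of 6 genes at this level in cDC2-like cells 3 were past 1.5-fold, all lower, where 17.2% of genes were lower and 15.5% higher. They were C1qc (56 and 17 UMIs), C3 (10 and 2 UMIs) and C3ar1 (15 and 2 UMIs), at 1.55 to 10.4% of their macrophage-like levels. Cfp, the gene that cDC2-like cells carry at a high level, had a ratio of 0.928 (0.774 to 1.11).

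Migratory dendritic-like and fibroblast-like cells carried more C1q in the Lyz2-icre library, at a low level. The C1q sum rested on 562 and 383 UMIs in migratory dendritic-like cells (ratio 1.56, 1.37 to 1.78) and on 561 and 1135 UMIs in fibroblast-like cells (1.69, 1.53 to 1.88). Genes past 1.5-fold and higher numbered 3 of 5 in the first class, beside 12.6% of all genes (15.6% were lower), and 3 of 6 in the second, beside 4.43%. Of Lyz2-icre migratory dendritic-like cells 4 of 98 held 10 or more C1q UMIs after thinning, and of control cells 1 of 140. Other macrophage transcripts took both directions. As a share of the macrophage-like level in migratory dendritic-like cells, Adgre1 stood at 1.51% in control and 5.14% in Lyz2-icre and Csf1r at 3.54% and 4.64%, whereas Apoe stood at 3.20% and 3.06%, Ms4a7 at 4.16% and 3.31%, Mrc1 at 4.08% and 2.92%, Ccl8 at 7.36% and 5.70% and Cd68 at 9.90% and 6.32%. In fibroblast-like cells Apoe (2.18% and 2.88%), Mrc1, Csf1r, Adgre1 and Cd68 were higher in Lyz2-icre, and Ms4a7 (1.63% and 1.22%) and Ccl8 (7.30% and 4.63%) were lower. The part of free RNA or of mixed droplets in these ratios was not tested. C3 in migratory dendritic-like cells stood at 26.9 and 65.3 CPM (ratio 2.43, 1.46 to 4.07), with 32 and 34 UMIs in 7.43% and 9.43% of the cells, so few cells set this value. In T-like cells 1 of 6 genes, C3 with 19 and 23 UMIs, was past 1.5-fold and higher, where 3.14% of genes were and 7.77% were lower, and in NK-like cells 0 of 5, where 6.22% were higher and 11.9% lower. C4b in fibroblast-like cells was the 1 gene of 6 past 1.5-fold and lower there (30 and 21 UMIs, ratio 0.586, 0.319 to 1.06), beside 7.56% of all genes.

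Single macrophage-like cells were compared after thinning each to 2000 UMIs. The median cell held 25 C1q UMIs in both libraries, with the lower quartile at 16 and 17 and the upper quartile at 33 and 33. All 3 chains were seen in 88.0% of the 5656 control cells and 92.0% of the 9314 Lyz2-icre cells, and no chain in 3.31% and 2.17%. Without thinning these shares were 91.8% and 92.0%, and 0.579% and 0.951%. Cells with 0 to 2 C1q UMIs, a chosen range, made up 7.25% of control cells (410 cells, 6.59 to 7.96%). In Lyz2-icre they made up 4.64% (432 cells, 4.22 to 5.09%). Cells with 10 or more made up 85.6% and 89.3%, and the remaining cells lay between these ranges. The share with 0 to 2 C1q UMIs was 8.32% and 3.98% among female cells and 5.24% and 5.48% among male cells. Of T-like cells, 87.3% and 93.4% held 0 to 2 C1q UMIs, and 0 of 502 and 0 of 408 held 10 or more, which allows shares of up to 0.732% and 0.900% by the exact binomial interval.

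**Figure D3:**
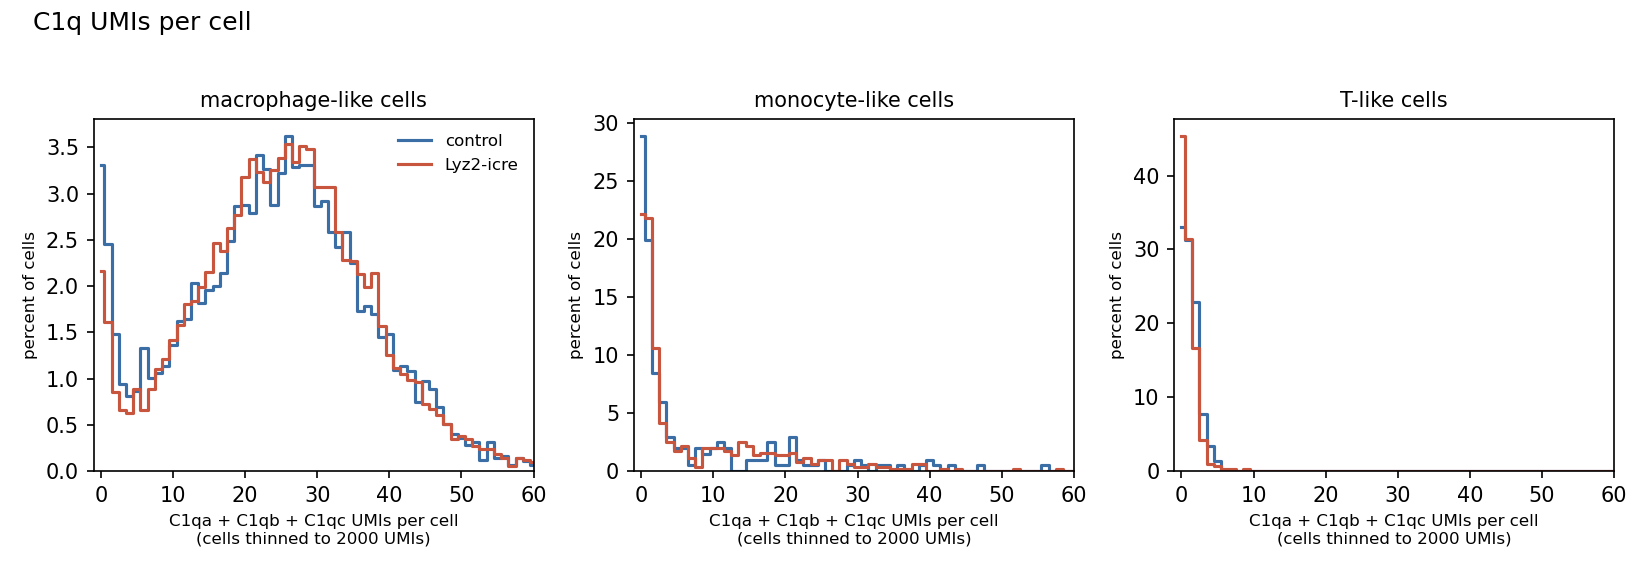
Percent of cells (y axis) by summed C1qa, C1qb and C1qc UMIs (x axis) after thinning every cell to 2000 UMIs, in macrophage-like, monocyte-like and T-like cells of the control (blue) and Lyz2-icre (red) libraries. Macrophage-like cells form a broad body around 25 UMIs with a peak near 0, monocyte-like cells are spread from 0 to the macrophage range, and T-like cells stay near 0.

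Macrophage-like cells with few C1q UMIs carried more Ly6c2, Chil3 and Il1b. The monocyte markers Plac8, Ccr2 and Vcan were not read in these cells. Levels were read from the UMIs left over after thinning, in cells with at least 2000 left, so that they share no UMI with the sorting into bins. In control cells with 0 to 2 C1q UMIs the monocyte gene Ly6c2 stood at 49.6 CPM, against 8.91 CPM in cells with 10 or more. The chitinase-like gene Chil3 stood at 485 against 47.6 CPM and the interleukin 1 beta gene Il1b at 4936 against 1743 CPM. Adgre1, which encodes the macrophage marker F4/80, was at 116 against 291 CPM and Apoe at 4015 against 10899.7 CPM. The Lyz2-icre library had the same order for these monocyte and cytokine genes, with Ly6c2 at 60.4 against 13.3 CPM, Chil3 at 404 against 55.1 CPM and Il1b at 2904 against 1289 CPM. Arg1, the arginase gene, did not keep one order, at 2232 against 660 CPM in control and 1060 against 1144 CPM in Lyz2-icre. Of the other complement genes, Cfp was higher in the C1q-low cells (333 against 208 CPM in control, 277 against 234 CPM in Lyz2-icre) and C3ar1 lower (234 against 348 CPM and 237 against 336 CPM). C3 differed less, at 127 against 146 CPM and 131 against 165 CPM. Adgre1 is among the gate markers, and a gate on Ly6c2 limits how much of that gene these cells can hold.

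Monocyte-like cells were split in the same way. Of control cells, 57.2% held 0 to 2 C1q UMIs and 25.9% held 10 or more, and of Lyz2-icre cells 54.5% and 31.4%. The remaining cells lay between these ranges. Their C1q level as a class, 35.3 to 40.2% of the macrophage-like level, was thus a mean over cells spread from near 0 to the macrophage range. The macrophage gate itself cut a continuous measure, with 128 control (2.12%) and 231 Lyz2-icre (2.22%) macrophage-like cells close above it.

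The C1q chains varied together from cell to cell. Across thinned control macrophage-like cells the Pearson r of log2 UMIs was 0.78 for C1qa with C1qb, 0.73 for C1qa with C1qc and 0.72 for C1qb with C1qc. In every other pair of the 9 genes in that library r was at most 0.13 (C1qc with C3ar1), and counts this sparse cannot show whether those genes vary together. The tenth of control cells with most UMIs of a gene held 21.95% of the C1qa UMIs, 39.4% of those of C3ar1, 48.5% of those of Cfp and 67.7% of those of C3. C3 was thus concentrated in fewer cells than the C1q chains, though a scarcer gene is more concentrated by counting alone.

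The third question was how the genes differed between macrophage states, defined by the thinned UMIs of state genes that are no complement genes. C3 and Cfb went with the interferon-induced chemokines Cxcl9 and Cxcl10. In control cells with UMIs of both (485 cells), C3 stood at 272 CPM, against 87.4 CPM in cells with neither (3390 cells), a ratio of 3.11 (2.93 to 3.30). In Lyz2-icre cells it stood at 235 CPM (1243 cells) against 112 CPM (4551 cells), a ratio of 2.09 (1.98 to 2.20). Cfb stood at 16.7 against 6.10 CPM in control (ratio 2.73, 2.14 to 3.48) and at 15.6 against 7.00 CPM in Lyz2-icre (2.23, 1.82 to 2.72). Between genotypes C3 was lower within the Cxcl9 and Cxcl10 state (0.864, 0.811 to 0.919) and higher outside it (1.29, 1.23 to 1.35). The state itself made up 8.57% of control and 13.3% of Lyz2-icre cells. These cells were deeper than those with neither chemokine, with medians of 11822 and 9799 UMIs in control and 7967 and 6901 UMIs in Lyz2-icre, and the part of depth was not tested.

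The anaphylatoxin receptors were lower in the same cells. C3ar1 stood at 260 against 359 CPM in control cells with and without the Cxcl9 and Cxcl10 UMIs (ratio 0.723) and at 289 against 359 CPM in Lyz2-icre (0.806). C5ar1 stood at 152 against 227 CPM (0.6704) and at 163 against 213 CPM (0.766). C1q differed little, with ratios of 1.13 and 1.14.

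C4b went with Ccl8, a monocyte-attracting chemokine. It stood at 34.8 CPM in control cells with a Ccl8 UMI (724 cells) and 7.56 CPM in the 4932 cells without, a ratio of 4.61 (3.93 to 5.39). In Lyz2-icre cells the values were 22.2 and 6.97 CPM (3.18, 2.76 to 3.67). C4b was also higher in cells with a UMI of the mannose receptor gene Mrc1, a gate marker, at 13.6 against 7.64 CPM in control (1.78) and 12.5 against 7.84 CPM in Lyz2-icre (1.59). The C1q sum was 1.34 and 1.28 times as high with a Ccl8 UMI, and C3 1.67 and 1.30 times. Cells with a Ccl8 UMI made up 12.8% of macrophage-like cells in control and 23.3% in Lyz2-icre. Within them C4b had a ratio between genotypes of 0.637 (0.542 to 0.748), against 0.922 (0.802 to 1.06) in cells without Ccl8. Median depths with and without a Ccl8 UMI were 9505 and 10415.5 UMIs in control and 7101 and 7316 UMIs in Lyz2-icre. The part of depth in these C4b ratios was not tested.

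Arg1 marked cells with more C5ar1, at 239 against 176 CPM in control (1.35) and 216 against 168 CPM in Lyz2-icre (1.29). These cells made up 38.5% and 55.7% of macrophage-like cells. Cfp was 1.22 and 1.12 times as high with Arg1, and Cfb 0.725 and 0.735 times. C3ar1 differed between the libraries, at 334 against 339 CPM in control (0.985, 0.958 to 1.01) and 375 against 277 CPM in Lyz2-icre (1.35, 1.32 to 1.39). The difference between the libraries was not tested.

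Cells with an Il1b UMI had less C4b (8.61 against 15.7 CPM in control, ratio 0.547, and 9.26 against 12.2 CPM in Lyz2-icre, 0.761) and more C3 (1.44 and 1.18). Macrophage-like cells with a Ly6c2 UMI had less C1q (7777 against 12080.4 CPM in control, 0.644, and 8503 against 12796 CPM in Lyz2-icre, 0.664) and more C3 (1.47 and 1.34). Cycling cells, with UMIs of Mki67 and Top2a, had C1q at 0.998 and 0.980 times the level of cells with neither, and C3ar1 at 0.829 and 0.725 times. The cycling cells were deeper, with medians of 15326 against 9739 UMIs in control and 10368 against 6942.5 UMIs in Lyz2-icre. C3ar1 also fell with depth, from 427 CPM under 5000 UMIs to 312 CPM at 10000 UMIs or more in control and from 373 to 301 CPM in Lyz2-icre, and the part of depth was not tested. In control cells with a Spp1 UMI (39.6% of cells), C1q stood at 10300.0 against 13194 CPM (0.781), C4b at 7.92 against 12.9 CPM (0.614) and Cfp at 250 against 197 CPM (1.27). Between 21.1% and 93.5% of the positive cells of a control state held only 1 UMI, so many lie next to the line, and the states overlap.

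**Figure D4:**
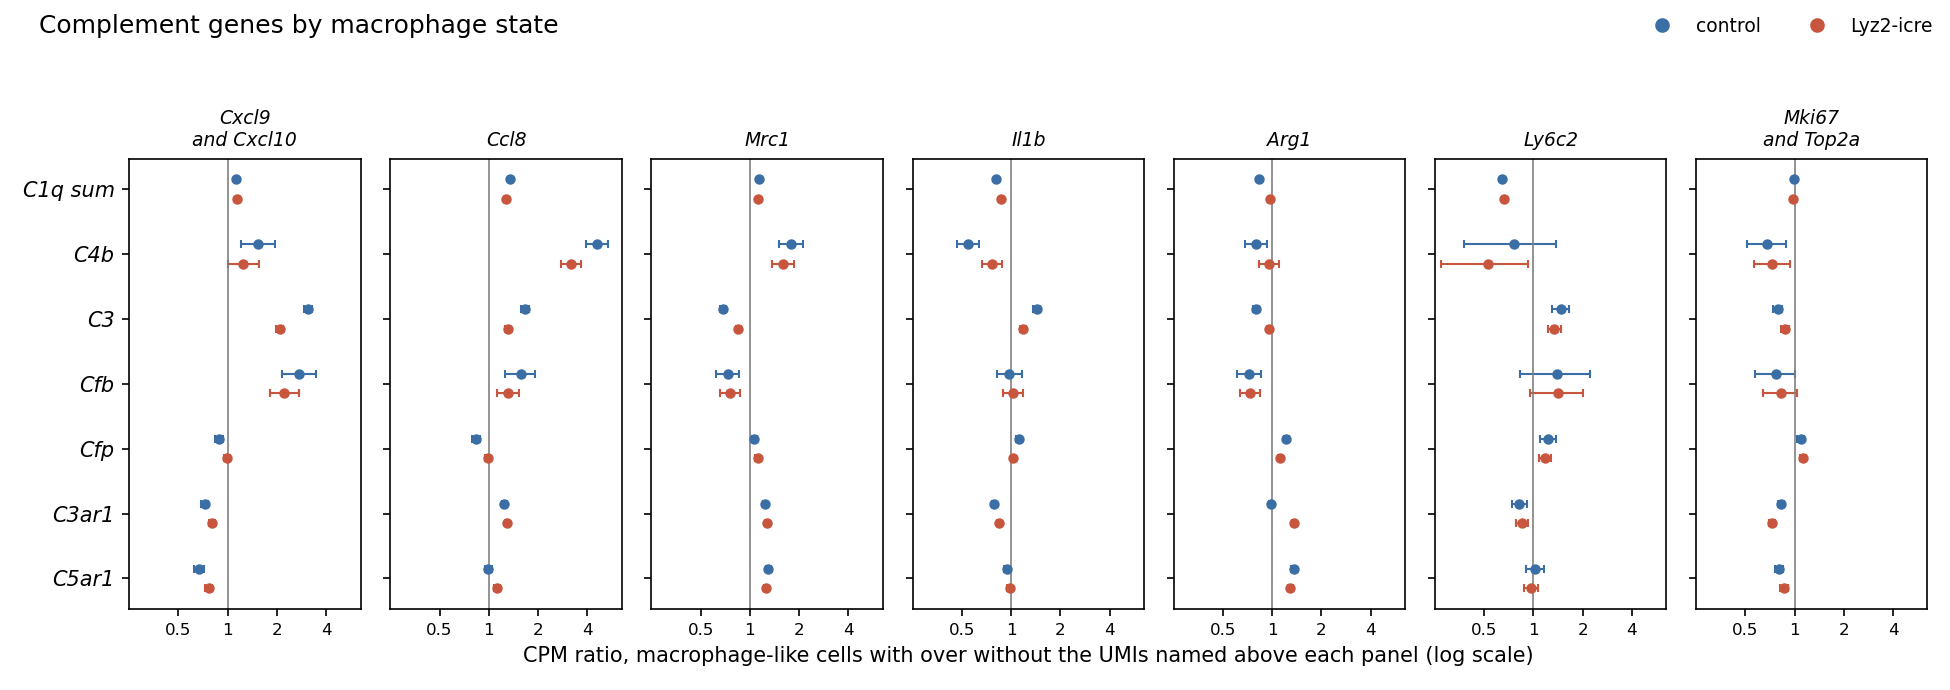
Ratio of CPM in macrophage-like cells with over without UMIs of the state genes named above each panel (log axis), for the C1q sum and 6 further complement genes, in the control (blue) and Lyz2-icre (red) libraries, with exact conditional 95% intervals. C3 and Cfb lie to the right with Cxcl9 and Cxcl10 (3.11 and 2.73 in control), C4b with Ccl8 (4.61 in control), and the C1q sum to the left with Ly6c2.

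Leiden clusters made without the complement genes gave a further view of the spread. Over 12 macrophage-like clusters with at least 50 cells in both libraries, the C1q sum ran from 4683 to 16743 CPM in control. In Lyz2-icre it ran from 4657 to 16347 CPM. Both lowest values came from cluster 5, where only 59.4% of cells were gated macrophage-like. Its Ly6c2 level was 4.61 per 10000 UMIs, close under the gate's cut of 5. The next lowest C1q sums were 7422 CPM in control (cluster 4) and 8683 CPM in Lyz2-icre (cluster 13). C3 ran from 70.7 to 410 CPM in control and C5ar1 from 54.0 to 298 CPM. The genotype ratio of the C1q sum had a median of 0.994 over the clusters and passed 1.5 in 1 of them, cluster 4, with 653 control and 1169 Lyz2-icre cells (7422 and 11326 CPM, 1.53, 1.51 to 1.54). In the other 11 it lay between 0.966 and 1.12. C3 had its highest control level in cluster 7, at 410 and 283 CPM (ratio 0.692, 0.640 to 0.747). Its highest Lyz2-icre level was in cluster 9, at 331 and 320 CPM (0.966, 0.889 to 1.05). Over the 12 clusters the C3 ratio ran from 0.669 to 1.41, with a median of 1.02, higher in 6 and lower in 6. C4b was highest in cluster 0 in both libraries, at 20.9 and 22.2 CPM (1.06, 0.856 to 1.31). Its ratio ran from 0.273 to 1.81, higher in 9 clusters and lower in 3.

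Of 43 further complement genes, 11 reached 10 CPM in macrophage-like cells. Their median log2 ratio was -0.03. Past 1.5-fold, 1 of the 11 was lower and 0 were higher, beside 1.57% and 0.494% of all genes. The C1 proteases that act with C1q were highest in fibroblast-like cells. C1ra, which encodes the C1r protease bound to C1q, stood at 19.5 and 23.5 CPM in fibroblast-like and at 10.6 and 13.4 CPM in macrophage-like cells (ratio 1.26, 1.15 to 1.40). C1s1, its partner protease, reached 37.0 and 41.1 CPM in fibroblast-like cells and 0.617 and 0.486 CPM in macrophage-like cells. None of the 10 later components on the list reached 10 CPM in macrophage-like cells.

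Among the regulators, Cd55, a membrane inhibitor that speeds the decay of convertases, was at 67.5 and 45.0 CPM in fibroblast-like and 47.3 and 56.9 CPM in NK-like cells. Clu, the secreted inhibitor clusterin, was at 63.8 and 48.0 CPM in migratory dendritic-like cells. Cr1l, the mouse Crry inhibitor, was at 49.1 and 46.9 CPM in macrophage-like and 94.6 and 87.6 CPM in NK-like cells.

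Of the receptors, Itgam, the alpha chain of complement receptor CR3, stood at 420 and 296 CPM in macrophage-like cells (0.704, 0.692 to 0.717). It was also lower within each sex, at 0.6704 and 0.757. Itgax, the alpha chain of CR4, stood at 93.2 and 112.5 CPM (1.21), and their shared partner Itgb2 at 214 and 244 CPM (1.14). The Itgax ratio was 1.39 in female and 0.967 (0.900 to 1.04) in male cells, untested. By depth it was 1.0004 under 5000 UMIs, 1.57 at 5000 to 10000 UMIs and 1.17 at 10000 UMIs or more. Cd93, once described as a C1q receptor, was at 138 and 103 CPM (0.743), and the sexes differed, at 0.554 in female and 1.41 in male cells, untested. The remaining receptors differed less, with Calr (calreticulin) at 980 and 1041 CPM, Lrp1 at 327 and 309 CPM, and C1qbp, the C1q-binding protein of mitochondria, at 111 and 108 CPM. Of the list, 8 genes had no UMI in the classes described.

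For each of the 9 genes, the nearest genes were found by Pearson r of log2 CPM with 5 CPM added, over 14 points (7 classes in 2 libraries) and 5650 genes. The points share libraries and free RNA, and the classes were gated on some of the genes named, so these are descriptions. The C1q chains were nearest to Apoe (r = 0.98 for C1qa), Ms4a7 and Trem2 or Ccl12. C3ar1 had Trem2 and Apoe among its 3 nearest genes, and C5ar1 had Sirpb1c and Trem2. Ms4a7 and Trem2 were gate markers. C3 was nearest to Ninj1 (0.96), Cstb and Aldh3b1, and Cfb to Tarm1 (0.96), Sat1 and Acod1, the itaconate-producing enzyme of activated macrophages. C4b was nearest to Camk1, Olfml3 and Ptgs1, and Cfp to Dock4 (0.99), Cd300a and Ppfia4.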

How the data were processed

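Single-cell 3-prime libraries (10x Genomics v3 kit) were made from sorted tumour leukocytes, 1 per genotype, per the labels. Reads were handled with bcl2fastq 5.0.1 and Cell Ranger on mm10, per the submitters' processing notes, and Cell Ranger was version 8.0.1 per the file headers. The annotation release was not given in the sources used here. The values used were the whole-number UMI counts that the authors deposited, covering called cells only. Free RNA was neither estimated nor removed.

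The cell filter required 300 genes, 500 UMIs and no more than 15% of UMIs from mitochondrial genes. Scrublet called 0 doublets in either library and so had not worked, and cells with markers of several lineages were set aside instead. Macrophage-like cells had at least 10 UMIs of 7 macrophage markers per 10000 UMIs, no other lineage and no high Ly6c2. Gate thresholds were set on the markers alone. UMIs were summed per class and library and divided by the class total (CPM). Intervals were exact Poisson, conditional binomial or Clopper-Pearson, at 95%, with a floor of 3 counts. Female cells had a Xist UMI and no UMI of 4 Y-linked genes, and male cells the reverse. The ratio code was tested on simulated data.

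The members and lists were chosen with earlier results of these data known. The text names the 9 members, other complement genes of at least 20 CPM in a class of at least 50 cells (and C4a, discussed as a paralog), and the 3 genes most like each member among those of at least 50 CPM. Results of 2 genes that these rules would name are not reported here. Gene IDs matched GENCODE vM21 for 52081 of 55357. Clusters came from Leiden (resolution 1, 30 components). Alternatives changed the cell filter, gates, classes, scaling, thinning, sex and doublet removal (by the highest scores of Scrublet, the tool that had not worked), and 3 more were chosen after the data were seen. Python 3.11.15 with scanpy 1.11.5 was used.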

Additional observations from a re-analysis of the deposited data

Results flagged for a closer look

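In macrophage-like cells, 2 of the 9 genes took opposite directions in the sexes with both counting intervals clear of 1. C1qb had a ratio of Lyz2-icre over control of 0.949 in female and 1.13 in male cells, and the male ratio was 1.19 times the female ratio. C5ar1 had ratios of 0.894 and 1.11, the male being 1.24 times the female. With 1 pool of cells per sex and genotype, these differences were not tested.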

How the results depend on the processing

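The counts of 0 genes lower and 0 genes higher past 1.5-fold in macrophage-like cells held in each of the 13 alternatives. The C1q ratio of 1.054 was 1.04 with stricter gates, 1.02 as the mean of per-cell CPM and 1.0645 with median-of-ratios scaling. It was 1.03 after thinning, 1.0003 in female cells and 1.18 in male cells. In alternatives chosen after the data were seen it was 1.04 (5000 to 10000 UMIs), 1.08 (mixed cells counted in) and 1.048 (Ly6c2-high cells counted in). These lie outside its counting interval of 1.051 to 1.057. The scaling divided every Lyz2-icre level by 0.990, and the cause of the other shifts was not tested. C5ar1, at 0.970, was 1.11 in male cells. No paired analysis was possible because each genotype had 1 library. Depth limits C4b and Cfb, and no spread between mice could be measured.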
